A study of Mus musculus with 6 samples.

Results

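The 10 genes described here, Fos, Fosb, Jun, Junb, Jund, Egr1, Nr4a1, Atf3, Ier2 and Ier3, are immediate early genes. They were picked by symbol from the 50600 genes of a count table of freshly sorted mouse cardiac side population (SP) cells. No cut on level or change was used, but earlier results of these data were known when they were chosen. All 10 were among the 13475 protein-coding genes that passed the filter on low counts, which asked for more than 1 CPM in at least 2 libraries. CPM is a count scaled to a common library total, and the CPM given below were also adjusted by TMM factors.

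Immediate early genes are transcribed within minutes of a stimulus such as serum, growth factors, stretch or wounding, from factors that the resting cell already holds, so that no new protein has to be made first. Kinase cascades activate serum response factor with its partners and CREB at their promoters, and the transcripts are short-lived. Most encode transcription factors, among them the Fos and Jun proteins that pair into the dimer AP-1, and enzymatic dissociation of tissue is itself known to switch them on.

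The SP is defined by the export of the dye Hoechst through ABC transporters, and in the heart it contains progenitor cells. Of 6 libraries, 3 came from wt mice (strain C57BL/6NRj) and 3 from flt3L-/- mice (C57BL/6Flt3Ltml/mx). The latter are labelled as lacking the cytokine ligand of the receptor Flt3, and the comparison asked how expression in the SP differs between the genotypes. The mice were 8 to 12 weeks old, and each library was a sort from the pooled cardiomyocyte- and erythrocyte-depleted cells of 4 hearts of 1 genotype. A wt and a flt3L-/- sort shared each of 3 sorting dates, which were 22 August 2016 (date 1), 24 August 2016 (date 2) and 29 August 2017 (date 3). Hearts of both genotypes were digested with collagenase for 25 min at 37 °C, the cells were held in Hoechst for 90 min at 37 °C and in antibodies for 30 min at 4 °C, and no undigested heart was analysed here, so the levels have no unhandled tissue to be set against. With 3 pooled sorts a group, p-values measure the spread between sorts and not between single mice.

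Total counts per library lay between 24370913 and 31145519, and the lowest count of any of the 10 genes was 2849. The SP transporter gene Abcg2 and 8 of 8 endothelial markers were detected in every library. So were all 8 markers each of fibroblasts, of pericytes and smooth muscle, of macrophages and of cardiomyocytes, so detection alone does not name the cells. Cardiomyocyte markers summed to between 129 and 224 CPM, erythroid markers to between 243 and 491 CPM and neutrophil markers to between 1.90 and 214 CPM. Fibroblast markers summed to between 3624 and 17996 CPM and macrophage markers to between 132 and 2257 CPM, so the sorts differed in the summed level of these markers. In bulk RNA, fewer cells of a type and less RNA per cell cannot be told apart. Flt3l, the gene that the flt3L-/- label names, was not lower in these libraries, with 13.6, 12.4 and 14.4 CPM against 8.67, 10.8 and 12.1 CPM in wt on dates 1, 2 and 3. Its log2 fold change was 0.37 (adjusted p = 0.973, edgeR's quasi-likelihood test), so the mutation was not visible from the amount of this transcript and flt3L-/- here always means the libraries so labelled.

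Immediate early transcripts were among the most abundant of the sorted cells. The 10 genes together held 2.35%, 1.75% and 1.71% of all counts in the wt libraries of dates 1, 2 and 3 and 1.96%, 1.998% and 1.64% in the flt3L-/- libraries. The 95% Wilson intervals of these shares reached no further than 0.00562 percentage points to either side and cover counting error only. Egr1 alone held 0.489% to 0.731%. Ordered by mean CPM, 4 of the 10 stood among the 20 most abundant protein-coding genes (Egr1 at rank 5, Fos at 12, Junb at 16 and Jun at 18), and all 10 stood within the top 3%.

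Long transcripts gather more counts, so levels of different genes were compared as TPM, which divides the count by the length of the exons before the scaling. On that scale the order was Fos (4221 ± 537 TPM, mean ± SD over the 6 libraries), Junb (3927 ± 355), Egr1 (3736 ± 773), Jun (2652 ± 484), Ier3 (1828 ± 156), Ier2 (1650 ± 179), Jund (1038 ± 823), Atf3 (911 ± 313), Nr4a1 (702 ± 378) and Fosb (173 ± 84.6). Neighbours in this order differed by less than the larger of their SDs, except for Egr1 over Jun, Jun over Ier3, and Nr4a1 over Fosb. Fosb was the least abundant, at rank 667 of the genes tested, and Fos transcripts outnumbered those of its close relative Fosb by between 16.2 and 65.2 times in the 6 libraries. The same places can be read from the plot of TPM against rank, in which the other 9 genes lie within the first 119 ranks.

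**Figure D1:**
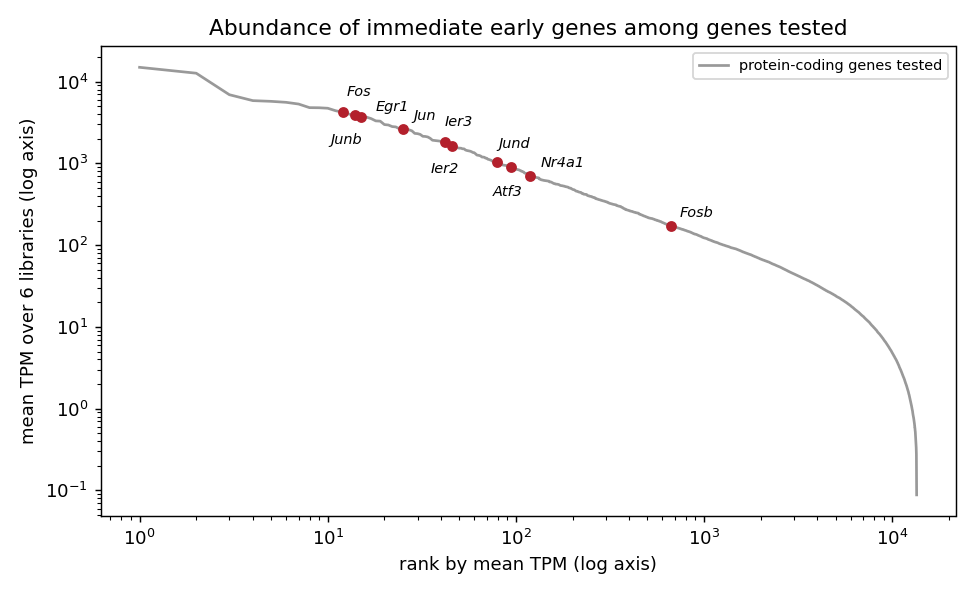
Mean TPM over the 6 libraries against rank by mean TPM, both on log axes, for the 13475 protein-coding genes tested (grey line) and the 10 immediate early genes (red points). Fos, Junb, Egr1 and Jun lie within the first 25 ranks and Fosb lies at rank 667.

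Promoter sequence is shown for the 3 abundant genes of the AP-1 pair, Fos, Jun and Junb, to set it beside their levels. RefSeq (GRCm38.p6) gave promoters for 8 of the 10 genes, and the 250 bases before the start site were searched on both strands. Capitals mark TGACG, the core of the CREB site TGACGTCA, and TATAAA, the TATA box. The windows lie at chr12:85473640-85473889 on the plus strand for Fos, at chr4:95052223-95052472 on the minus strand for Jun and at chr8:84978749-84978998 on the minus strand for Junb.
Fos: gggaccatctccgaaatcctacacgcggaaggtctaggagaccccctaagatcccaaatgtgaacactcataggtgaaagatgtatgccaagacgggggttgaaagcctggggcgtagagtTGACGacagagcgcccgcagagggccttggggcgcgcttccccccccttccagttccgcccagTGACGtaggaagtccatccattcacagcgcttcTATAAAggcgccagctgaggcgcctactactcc
Jun: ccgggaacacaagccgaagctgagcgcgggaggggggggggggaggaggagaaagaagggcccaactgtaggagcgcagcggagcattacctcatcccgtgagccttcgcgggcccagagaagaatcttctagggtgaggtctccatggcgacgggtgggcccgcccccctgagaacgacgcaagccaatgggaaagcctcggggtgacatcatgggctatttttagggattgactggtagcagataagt
Junb: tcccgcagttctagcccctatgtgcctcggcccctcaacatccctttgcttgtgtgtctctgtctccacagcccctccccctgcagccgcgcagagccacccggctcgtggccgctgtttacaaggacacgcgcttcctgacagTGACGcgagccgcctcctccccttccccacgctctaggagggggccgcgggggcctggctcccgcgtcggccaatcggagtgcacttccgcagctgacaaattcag

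The Fos window held TGACG at 129 and 66 bases before the start and TATAAA at 33 bases, and the Junb window held TGACG at 106 bases. TGACG or its reverse complement stood in 5 of the 8 windows (62.5%), those of Fos, Fosb, Junb, Atf3 and Nr4a1, while 17.8% of 32851 mouse promoters held it. The Jund window ends 1210 bases before the gene model on which its reads were counted, and without it the share was 5 of 7 (71.4%). The windows of Nr4a1 (chr15:101266596-101266845) and Atf3 (chr1:191183334-191183583), both with a match, also stand apart from the model's outer start. They lie inside the longer gene models on which reads were counted, and both were kept in these shares. The full TGACGTCA (1.55% of promoters), the AP-1 site TGANTCA (6.75%) and the CArG box bound by serum response factor (1.47%) were in none of the 8 windows. GCGNGGGCG, the letters bound by Egr1, was in 2 of them, Fosb and Nr4a1 (4.70% of promoters), and TATAAA in 1 (12.4%). Such matches describe the letters of these windows, and elements further upstream were not searched.

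None of the 10 genes passed the test between wt and the libraries labelled flt3L-/- in edgeR's quasi-likelihood test with sorting date as a covariate. Adjusted p-values of the 10 lay between 0.973 and 0.994, and 0 of 13475 genes passed the threshold of 0.05 (0%). The authors, with an earlier edgeR release, listed a small set of genes close below this threshold, and none of the 10 is in it. Why the counts of genes passing differ was not tested. At an unadjusted p under 0.05 the count was 0 of the 10, beside 3.59% of all genes tested (484 genes). DESeq2 called 21 genes and 0 of the 10. For none of the 10 did the 3 flt3L-/- values lie wholly above (3.53% of all genes) or wholly below (2.92%) the 3 wt values. The difference had the same sign in all 3 date pairs for Ier2 and Ier3, both higher in flt3L-/- (14.2% of all genes), and for none in the other direction (11.5%). The pairs differed among themselves. In the pair of date 2, 9 of the 10 genes were higher in flt3L-/- (50.4% of all genes), against 3 in the pair of date 1 (54.1%) and 6 in the pair of date 3 (51.2%).

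**Figure D2:**
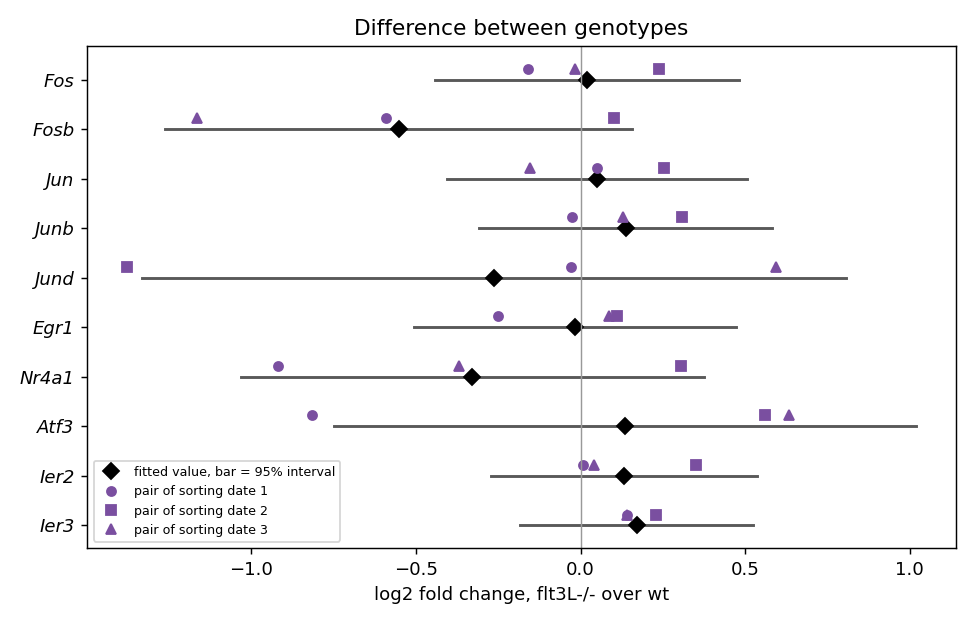
Log2 fold change of flt3L-/- over wt for each gene: black diamonds give the value fitted over the 3 pairs, bars its 95% interval, and purple symbols the difference within the pair of each sorting date. Every interval spans 0, and the narrowest belong to Ier3 and Ier2.

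Fos, on chromosome 12 (GRCm38, bases 85473890 to 85477273, plus strand, 4 exons), encodes the short-lived AP-1 subunit that binds DNA only as a partner of a Jun protein. In the wt libraries of dates 1, 2 and 3 it stood at 4148, 3257 and 3469 CPM, and in the flt3L-/- libraries at 3714, 3839 and 3426 CPM. The groups overlapped and the 6 libraries lay within 1.27-fold. The log2 fold change was 0.02 (95% interval −0.44 to 0.48), which changed sign when libraries were scaled by total count alone (−0.02) and without the pair of date 2 (−0.11).

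Fosb (chromosome 7, bases 19302696 to 19310051, minus strand), a close relative of Fos, encodes a protein that dimerises in the same way. It read 679, 360 and 313 CPM in wt and 451, 386 and 140 CPM in flt3L-/-. Its level was highest in both libraries of date 1, within each genotype, and lowest in those of date 3. The log2 fold change of −0.55 (95% interval −1.26 to 0.16, adjusted p = 0.973 in edgeR's quasi-likelihood test) was the furthest from 0 of the 10, and it moved from −0.25 without the pair of date 3 to −0.90 without the pair of date 2.

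The Jun genes supply the subunits that pair with Fos or with each other. Jun (chromosome 4, bases 95049034 to 95052222, minus strand, 1 exon) stood at 3438, 2870 and 2772 CPM in wt and at 3558, 3418 and 2495 CPM in flt3L-/-. Junb (chromosome 8, bases 84974484 to 84978718, minus strand, 1 exon) stood at 3533, 2834 and 3154 CPM against 3473, 3507 and 3452 CPM. For both genes the flt3L-/- library of date 2 lay above its wt partner, and the groups overlapped. Their log2 fold changes were 0.05 (95% interval −0.41 to 0.51) and 0.14 (−0.31 to 0.58). Without the pair of date 2 they were −0.07 and 0.03. The libraries were unstranded, and 7.3% of the Jun exon bases overlap the antisense gene Junos and 7.5% of those of Junb overlap Prdx2.

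Jund (chromosome 8, bases 70698949 to 70700616, plus strand, 1 exon) is the Jun gene that is as a rule transcribed steadily in resting cells and least induced by stimuli. Here it was the most variable of the 10. Its level was 1143, 846 and 106 CPM in wt and 1120, 326 and 160 CPM in flt3L-/-, which spans 10.8-fold. Both libraries of date 1 were high, both of date 3 were low, and on date 2 the wt library was 2.60 times the flt3L-/- library. The log2 fold change between genotypes was −0.26 (95% interval −1.33 to 0.81) and turned to 0.26 without the pair of date 2. Jund made up 20.8%, 19.2% and 2.76% of the TPM of the 3 Jun genes in wt and 20.4%, 6.99% and 4.04% in flt3L-/-, so the makeup of the family differed between libraries while Jun and Junb stayed within 1.43-fold and 1.25-fold.

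Egr1 (chromosome 18, bases 34859823 to 34864984, plus strand, 2 exons) encodes a zinc finger factor that binds GC-rich sites. It was at 7908, 5564 and 5160 CPM in wt and at 6649, 6010 and 5482 CPM in flt3L-/-. In both genotypes the library of date 1 was the highest. The genotype log2 fold change was −0.02 (95% interval −0.50 to 0.47), and its sign turned without the pair of date 1 (0.10).

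Nr4a1 (chromosome 15, bases 101254269 to 101274795, plus strand) encodes the orphan nuclear receptor Nur77. Its values were 1754, 650 and 689 CPM in wt against 928, 802 and 533 CPM in flt3L-/-. The wt library of date 1 stood well apart from the other 5 libraries. The log2 fold change of −0.33 (95% interval −1.03 to 0.37) lay between −0.67 without the pair of date 2 and −0.03 without that of date 1.

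Atf3 (chromosome 1, bases 191170296 to 191218039, minus strand), a stress-induced bZIP factor that mostly represses, was at 1126, 450 and 575 CPM in wt and at 640, 664 and 892 CPM in flt3L-/-. The wt libraries of date 1 and date 2 were the highest and the lowest of the 6. The log2 fold change was 0.13 (95% interval −0.75 to 1.02), between −0.13 without the pair of date 3 and 0.60 without that of date 1.

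Ier2 and Ier3 are the 2 genes of the group outside the classical factor families. Ier2 (chromosome 8, bases 84661331 to 84662852, minus strand, 1 exon), which encodes a nuclear protein, stood at 988, 765 and 898 CPM in wt and at 993, 976 and 923 CPM in flt3L-/-. Ier3 (chromosome 17, bases 35821684 to 35822923, plus strand, 2 exons), a stress-induced regulator of cell survival, stood at 692, 625 and 847 CPM against 763, 733 and 933 CPM. In each pair the flt3L-/- library was the higher, for Ier2 by 0.01, 0.35 and 0.04 and for Ier3 by 0.14, 0.23 and 0.14 on the log2 scale. The fitted log2 fold changes of 0.13 (95% interval −0.27 to 0.54) and 0.17 (−0.19 to 0.53) did not pass (adjusted p = 0.973 for both, edgeR's quasi-likelihood test). Most of the Ier2 value came from the pair of date 2, without which it was 0.0022, while Ier3 was then 0.12.

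**Figure D3:**
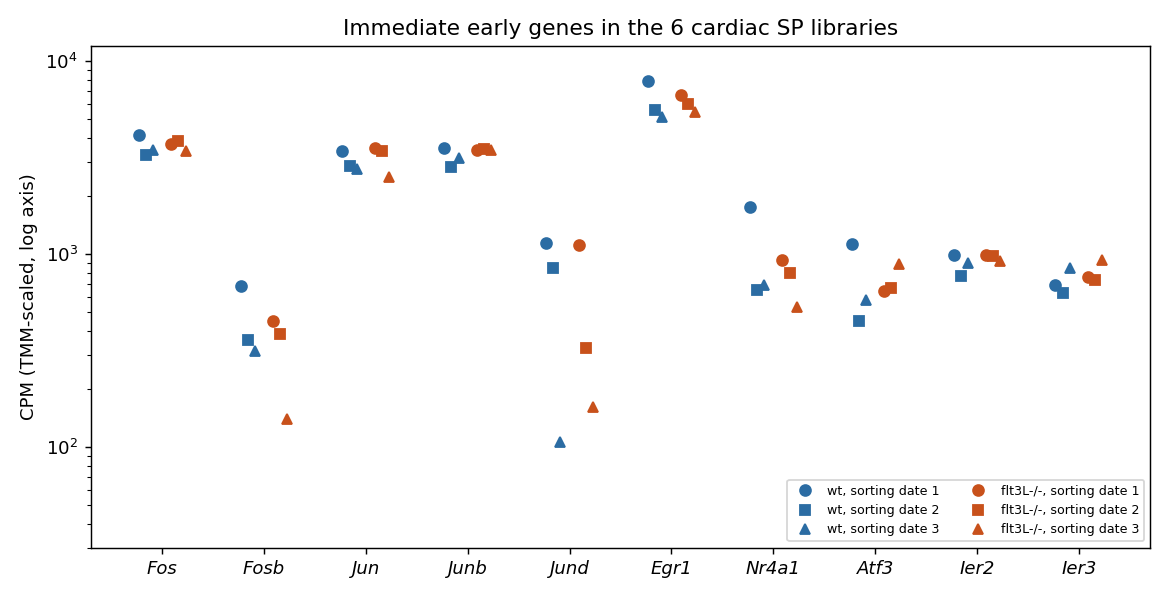
TMM-scaled CPM (log axis) of the 10 genes in the 6 libraries, with wt in blue, flt3L-/- in orange and the sorting date given by the symbol. The groups overlap for every gene, and Jund spans from 106 to 1143 CPM while Junb spans from 2834 to 3533 CPM.

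Between the highest and the lowest library the 10 genes differed by 1.25-fold (Junb) to 10.8-fold (Jund), and by less than 2-fold for 6 of them. Of all genes tested, 62.3% stayed below 2-fold, and 77.4% of the 2133 genes with a mean of at least 100 CPM did. The steady 6 were Fos, Jun, Junb, Egr1, Ier2 and Ier3, and the variable 4 were Fosb, Jund, Nr4a1 and Atf3. The wt library of date 1 had the highest value of 7 of the 10 genes, as it had for 19.3% of all genes. This library also had the highest summed level of fibroblast markers (17996 CPM, against 3624 to 11587 CPM in the others) and of pericyte and smooth muscle markers (900 CPM against 274 to 553 CPM), and the lowest of macrophage markers (132 CPM against 169 to 2257 CPM). The part of these differences in the result was not tested.

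The 3 sorting dates were compared with both date terms of the same fit, with 1 library of each genotype a date. No gene of the 10 passed (adjusted p between 0.598 and 0.898, edgeR's quasi-likelihood test), and neither did any of the 13475 genes (0%). At an unadjusted p under 0.05 the count was 3 of the 10, Jund, Fosb and Nr4a1, beside 8.28% of all genes (1116 genes). By DESeq2's likelihood ratio test 403 genes passed (2.99%), Jund (adjusted p = 1.73e-06) and Fosb (0.0266) among them. Without the pair of date 2, edgeR called 112 genes between dates 1 and 3 (0.854% of 13111), and of the 10 only Jund (adjusted p = 0.0409). The call for a date difference thus depended on the test and on 1 pair of libraries.

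Jund had mean levels of 1131, 586 and 133 CPM on dates 1, 2 and 3. Its range over the dates, 3.06 on the log2 scale (8.34-fold), was the widest of the 2133 genes with a mean of at least 100 CPM. Among all 13475 genes tested this range was at rank 72. Date 3 lay 2.56 below the mean of dates 1 and 2 on the log2 scale (log2 difference −2.56, 95% interval −3.82 to −1.29, not adjusted for the number of genes). Adjusted over all genes tested, this difference did not pass (adjusted p = 0.369, edgeR's quasi-likelihood test). Within wt the level on date 1 was 10.8 times that on date 3, and within flt3L-/- 6.99 times. On 1 and the same date the genotypes differed by at most 2.60-fold.

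The plot of levels in order of sorting date sets the genes side by side. Fosb had mean levels of 565, 373 and 226 CPM on the 3 dates, a log2 range of 1.37. Nr4a1 had 1341, 726 and 611 CPM, a log2 range of 1.10, with most of it in the wt library of date 1. For Junb, Fos and Ier2 the log2 range was 0.15, 0.19 and 0.19, and Ier3 alone had its highest mean on date 3 (890 CPM against 727 and 679 CPM).

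**Figure D4:**
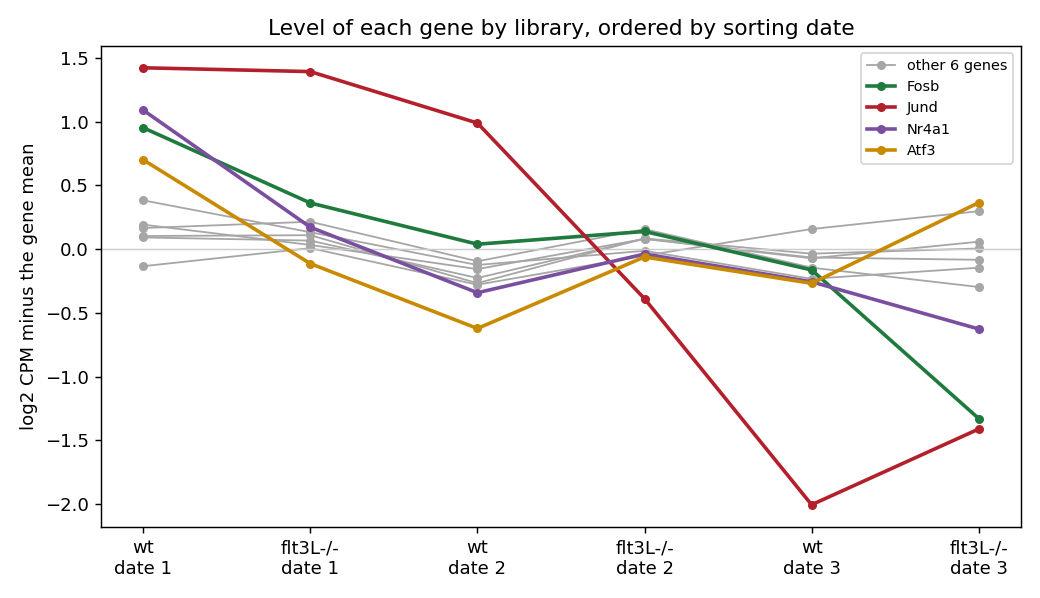
Log2 CPM of each gene minus its mean over the 6 libraries, with libraries in order of sorting date. Jund, Fosb, Nr4a1 and Atf3 are coloured and the other 6 genes are grey. Jund goes from 1.42 in the wt library of date 1 to −2.01 in the wt library of date 3, while no grey gene lies further than 0.38 from its mean.

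Several measured features are set beside the level of Jund here, and their part in it was not tested. Its exon sequence was 67.1% GC, above that of 99.8% of the genes tested, and 52.6% of its exon bases overlap the antisense gene Gm11175. Without strand, reads of the pair cannot be told apart, and Gm11175 had 18296, 13420 and 1719 counts in wt and 19067, 4630 and 2456 counts in flt3L-/-. Genes of at least 65% GC (50 genes) also lay lower on date 3, with a median log2 difference from dates 1 and 2 of −0.55, against −0.22 for the 546 genes of at least 60% GC and 0.03 for all genes. Over all genes tested, GC content and this difference had a Spearman correlation of −0.10. With the trend on GC removed in each library, the date range of Jund was 2.67 on the log2 scale.

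Other early genes had the pattern of Jund, which was looked up after its values were seen. Over the 6 libraries, 11 of the 91 other genes in the related lists had a Pearson correlation with Jund above 0.9 (12.1%), against 3.84% of 13474 genes, and the points share their libraries and dates. Closest were Dusp5, a phosphatase of ERK (r = 0.995), Plk3, a stress kinase (0.990), Srf, serum response factor itself (0.988), Klf2, a flow-induced factor of endothelium (0.988), and Zfp36l2, which marks transcripts for decay (0.983). Klf2, for example, was at 413, 392 and 65.6 CPM in wt and at 529, 127 and 84.7 CPM in flt3L-/-, and Zfp36l2 at 225, 160 and 34.7 CPM against 234, 69.8 and 30.1 CPM. As with Jund, both libraries of date 1 and the wt library of date 2 were high and the other 3 were low. The GC content of these 5 genes lay between 54.8% and 64.4%.

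The 10 genes mostly varied together between libraries. Of their 45 pairs, 26 had a correlation of log2 CPM above 0.5 over the 6 libraries, and the median was 0.569, against −0.00116 for pairs of all genes. The closest pairs were Junb with Ier2 (r = 0.965) and Egr1 with Nr4a1 (r = 0.937). Ier3 was the exception, since the 6 pairs below 0 were all with Ier3, down to −0.764 with Jund. With 6 libraries that share sorting dates, these values are a description only.

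The genes whose pattern was most like the mean of the 10, by correlation over the 6 libraries, were Ikzf4, an Ikaros-family zinc finger gene (r = 0.998), Sphk1, sphingosine kinase (0.994), Rest, a repressor of neuronal genes (0.994), Sele, the endothelial adhesion molecule E-selectin (0.992), and Hbegf, an EGF receptor ligand (0.982). They were picked as the highest of 13465 genes, of which 73 had a correlation above 0.9. Sele was at 186, 56.7 and 78.6 CPM in wt and at 132, 102 and 79.2 CPM in flt3L-/-. Hbegf was at 285, 126 and 149 CPM against 250, 188 and 165 CPM. Both were highest in the wt library of date 1 and lowest in the wt library of date 2. Among cell type markers, the sum of the pericyte and smooth muscle list had the highest correlation with the mean of the 10 (0.744), ahead of the fibroblast list (0.503). The other 8 lists were below 0, from −0.367 for cardiomyocyte to −0.811 for cycling markers, with −0.672 for side population and sort markers, −0.534 for macrophage and −0.512 for endothelial markers.

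Genes of the wider early response were likewise not called between genotypes. In 6 lists with 91 genes tested, 0 genes passed in edgeR's quasi-likelihood test or in DESeq2, and 1 had an unadjusted p under 0.05 in the former. Between dates, edgeR called none of the 91 and DESeq2 called 16, of which 6 were early transcription regulators and 5 cytoplasmic or secreted products, beside its 2.99% of all genes. At an unadjusted p under 0.05 in edgeR, beside 8.28% of all genes, the count between dates was 2 of 14 AP-1 and bZIP partners, 8 of 17 transcription regulators, 3 of 19 feedback inhibitors, 8 of 14 cytoplasmic and secreted products, 4 of 17 kinases and serum response factors and 1 of 10 heat shock genes. List medians of the log2 fold change lay between −0.07 and 0.03 in 5 of the 6 lists and at 0.40 in the heat shock list, beside −0.00027 over all genes and 0.03 for the 10 genes.

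Other AP-1 and bZIP partners counted 14 genes, of which 3 were higher in flt3L-/- in each pair (14.2% of all genes) and none was lower in each (11.5%). Atf4, the factor of the integrated stress response, and Mafk, a small Maf partner, were the most abundant, and their log2 fold changes were 0.14 and 0.21. Fosl1, which encodes Fra-1, stood at 71.3, 55.1 and 59.97 CPM in wt and at 73.0, 63.9 and 136 CPM in flt3L-/-, so that the flt3L-/- library of date 3 alone was far above the others. Batf2, at a mean of 4.41 CPM in wt and 7.88 CPM in flt3L-/-, had a log2 fold change of 0.73.

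Of the 17 other early transcription regulators, Klf6 was at 1030 ± 186 CPM in wt and 1143 ± 120 CPM in flt3L-/- (mean ± SD, n = 3), and Ier5 at 608 ± 157 against 688 ± 142 CPM. Nr4a2, the relative of Nr4a1, stood at 469, 165 and 212 CPM in wt and at 241, 157 and 162 CPM in flt3L-/-. Myc stood at 481, 176 and 149 CPM against 234, 209 and 84.6 CPM. In both genes the wt library of date 1 was by far the highest, as it was for Nr4a1.

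The 19 early feedback inhibitors, which switch the response off again, included some of the abundant genes. Dusp1, the phosphatase that inactivates p38 and JNK, was at 1831 ± 372 CPM in wt and 2173 ± 136 CPM in flt3L-/-, and Nfkbia, the inhibitor of NF-kappaB, at 700 ± 113 against 797 ± 113 CPM. Zfp36l2 had a log2 fold change of −0.44 and Spry2, an antagonist of receptor tyrosine kinases, one of −0.59, neither passing. In this list 1 gene was higher in flt3L-/- in each pair (14.2% of all genes) and 1 was lower in each (11.5%).

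Of the 14 early cytoplasmic and secreted products, Ccn1, a matrix-bound signalling protein, was at 1773 ± 529 CPM in wt and 1661 ± 73.7 CPM in flt3L-/-, and Sgk1, a serum-induced kinase, at 1934 ± 84.8 against 2118 ± 273 CPM. Ptgs2, the inducible cyclooxygenase, stood at 1289, 275 and 427 CPM in wt and at 759, 273 and 183 CPM in flt3L-/-. It was lower in flt3L-/- in each pair, as was Il6, with log2 fold changes of −0.67 and −0.47 (adjusted p = 0.973 for both, edgeR's quasi-likelihood test). In the pair of date 2 the log2 difference was only −0.010 for Ptgs2 and −0.058 for Il6. Both were named for having the smallest genotype p of this list. Among its 14 genes, 3 had the lower value in flt3L-/- on every date, beside 11.5% of all genes. The higher value on every date was seen for 1, beside 14.2%.

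Upstream kinases and serum response factors, the machinery that is present before the stimulus, counted 17 genes. Mapk3, which encodes ERK1, was at 169 ± 14.7 CPM in wt and 179 ± 1.68 CPM in flt3L-/-, and Elk3, a partner of serum response factor, at 208 ± 28.9 against 227 ± 35.1 CPM. Map2k2, the kinase above ERK, was higher in flt3L-/- in each pair (log2 fold change 0.23), and Braf was lower in each (−0.29). Neither of these differences passed. Of the 17 genes, 1 was higher in each pair (14.2% of all genes) and 2 were lower in each (11.5%).

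The heat shock genes, which answer to protein damage, were the one list that leaned one way. All 10 of its genes had a log2 fold change above 0, and 7 of 10 were higher in flt3L-/- in each pair, beside 14.2% of all genes. The flt3L-/- library of date 3 was the highest of the 6 for all 10 genes, as it was for 27.4% of all genes, and it also had the lowest summed fibroblast markers (3624 CPM), whose part was not tested. The median log2 difference of the 10 was 0.29 in the pair of date 1, 0.16 in that of date 2, where 7 of 10 were higher, and 0.86 in that of date 3. Hspb1, a small heat shock protein, stood at 365, 401 and 540 CPM in wt and at 615, 484 and 1179 CPM in flt3L-/-. Its log2 fold change was 0.72 (95% interval 0.17 to 1.26, adjusted p = 0.973, edgeR's quasi-likelihood test), and Hsp90aa1 had 0.44. Hspa1b and Hspa1a, the inducible Hsp70 genes, were at ranks 3 and 8 by TPM, above all 10 immediate early genes, with log2 fold changes of 0.29 and 0.27. They are near-identical copies between which reads could have been split, so their separate values are uncertain.

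**Figure D5:**
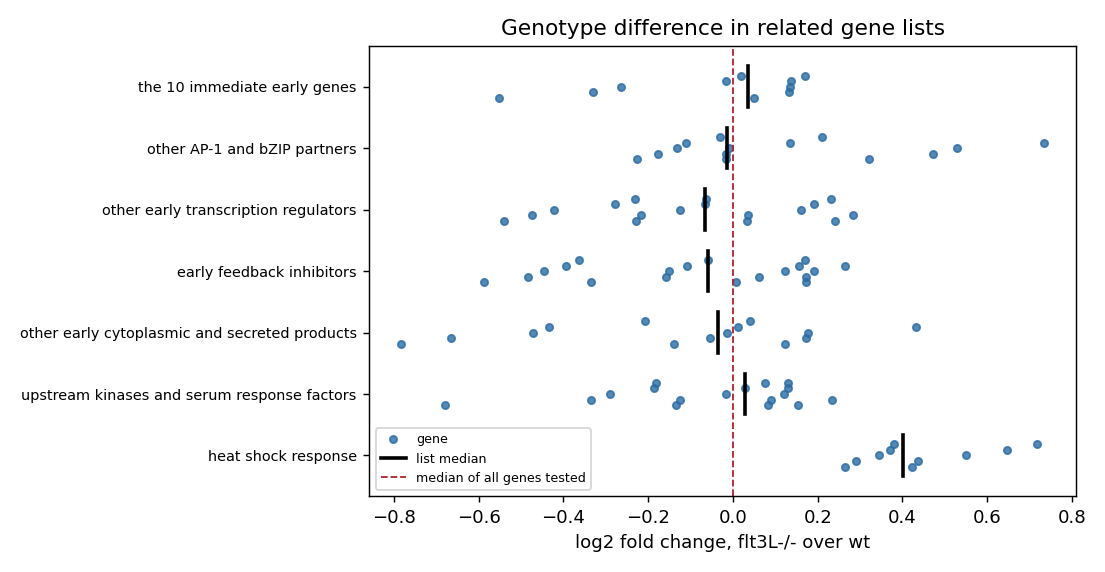
Log2 fold change of flt3L-/- over wt for each gene (points) of the 10 immediate early genes and of 6 related lists, with each list's median (black bar) and the median of all genes tested (dashed line). The medians lie between −0.07 and 0.03 except in the heat shock list, where the median is 0.40.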

How the data were processed

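The authors mapped single reads of 81 bases to mm10 with STAR 2.5.2a, allowing up to 10 hits a read, and counted reads starting in an exon with QuasR 1.18.0 on Ensembl release 88. The deposited values are these raw counts per gene, from unstranded SMART-Seq v4 libraries. Gene symbols, coordinates and exons came from GENCODE (GRCm38), which lacked 224 of the 50600 genes.

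Protein-coding genes above 1 CPM in at least 2 libraries were tested with edgeR 4.0.16 (R 4.3.3): TMM factors, glmQLFit and glmQLFTest, genotype and sorting date as terms, Benjamini-Hochberg adjustment over 13475 genes and a threshold of 0.05. Scripts were tested on simulated data of lower dispersion than the 0.0978 of these data, a check of the code that does not measure its power here. TPM used the union exon length. The labels put a wt and a flt3L-/- sort on each date, which gives the pairing; deviations from the group means correlated at 0.180, 0.104 and 0.116 within the pairs of dates 1, 2 and 3, and between −0.354 and 0.247 for libraries of different dates. No pair of libraries was a duplicate (correlation of log2 CPM 0.914 to 0.976). Alternatives were other scalings, filters and dispersions, DESeq2 1.42.0, thinning to the smallest total count, no date term, and each date left out; removal of a GC trend was added after seeing the data.

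The members and lists were chosen with earlier results of these data known. Named are all 10 members; of each list the 2 genes most abundant by TPM and the 2 with the smallest genotype p; the 5 genes most like the members; and Flt3l. Genes named for their likeness to Jund were chosen after their values were seen. Columns of every library were used.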

Additional observations from a re-analysis of the deposited data

How the results depend on the processing

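The 3 pooled sorts a genotype and 2 residual degrees of freedom limit the comparison, not depth: 3 counts are 0.109 to 0.127 CPM. The count of the 10 genes called between genotypes was 0 under every alternative run, with adjusted p-values of the 10 between 0.534 and 1. With no replicate block, that is without the pairing by date, 0 genes were called and 262 had an unadjusted p under 0.05, against 484 with it; it changed no call of a named gene. DESeq2 called 21 genes between genotypes and 403 between dates, 2 of the 10 among the latter. Leaving out 1 date at a time gave 0 to 112 genes called between dates and 0 to 1 of the 10, the higher value without date 2. Some log2 fold changes changed sign, and not only those near 0, since Jund, at −0.26 in the main fit, was among them. Fos was −0.0194 when scaled by library size only. With 1 date left out, Fos lay between −0.11 and 0.1092, Jun between −0.0726 and 0.1507, Jund between −0.7042 and 0.2599, Egr1 between −0.1029 and 0.0988, and Atf3 between −0.1272 and 0.5967. The cause was not tested. Scaling by library size alone moved the median of all genes by −0.04 on the log2 scale.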
